A study of Mus musculus with 2 samples.

Results

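The genes described here are the 9 proximal kinases, adaptors and phospholipases of T cell receptor signalling: Plcg1, Plcg2, Syk, Zap70, Lck, Fyn, Txk, Lat and Lcp2. They were taken by gene symbol from 20663 genes on the array, with every probe set of each gene. By an exact match, 8 of the 9 were found. The table lists the probe sets of the remaining gene under the older symbol Sykb, which is a RefSeq synonym of Syk and stands beside the common name Syk in the same table, so Syk was added through that synonym and is marked as such below. The 9 genes have 21 probe sets, of which 17 belong to the 8 genes matched exactly.

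RNA came from intraepithelial lymphocytes (IEL), T cells that sit among the epithelial cells of the gut, here the small intestine. The tested cells were CD4 IEL that also carry the CD8 alpha-alpha homodimer (CD4CD8aa IEL), and they were set against CD4 IEL without CD8 alpha (CD4 IEL). Both populations were sorted 8 weeks after naïve CD4 cells had been transferred into RAG knockout mice, in a model of colitis, and the labels give the strain as C57BL/6. RAG knockout hosts form neither T nor B cells but keep myeloid, mast and NK cells, so that the T cells of such a mouse come from the transfer. The sources used here do not give the age of the mice, the number pooled or the sort gates. Each population was hybridised to 1 single-colour Affymetrix Mouse Genome 430 2.0 array, so that no difference below carries a test, a standard error or a replicate check.

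When a T cell receptor binds its ligand, the Src-family kinases Lck and Fyn phosphorylate the CD3 and zeta chains. The Syk-family kinase Zap70 docks on these chains and phosphorylates the adaptors Lat and Lcp2 (SLP-76), which gather phospholipase C gamma 1 and Tec-family kinases such as Txk. The phospholipase then splits a membrane lipid into inositol trisphosphate, which releases calcium, and diacylglycerol, which activates Ras and protein kinase C. Syk and Plcg2 are the counterparts of Zap70 and Plcg1 that dominate in B cells and myeloid cells. Lck is bound to the tail of both CD4 and CD8 alpha.

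Signals are given as multiples of the median signal of the array, which was 81.1 raw units in CD4CD8aa IEL and 82.5 in CD4 IEL, and every difference is a log2 value of CD4CD8aa IEL minus that of CD4 IEL. Signals under 0.4 times the median were raised to that floor first. A probe set counts as detected where its brighter array lies above the floor. The floor is the higher of the arrays' 30th percentiles. By that definition, 69.9% and 70% of all probe sets lay above it on the CD4CD8aa and CD4 arrays. All 9 genes and 19 of their 21 probe sets were detected. Where a gene has several probe sets, its value is that of the probe set with the highest mean signal. The spread that could be measured is the SD of log2 differences among detected probe sets that share a gene (same-gene SD). It was 0.81 for probe sets under the array median, then 0.676 up to a signal of 2, 0.553 up to 4, 0.452 up to 16, 0.408 up to 64 and 0.354 for brighter ones. That spread covers neither mice nor RNA preparations.

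The plot of every probe set on both arrays shows where the genes stand.

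**Figure D1:**
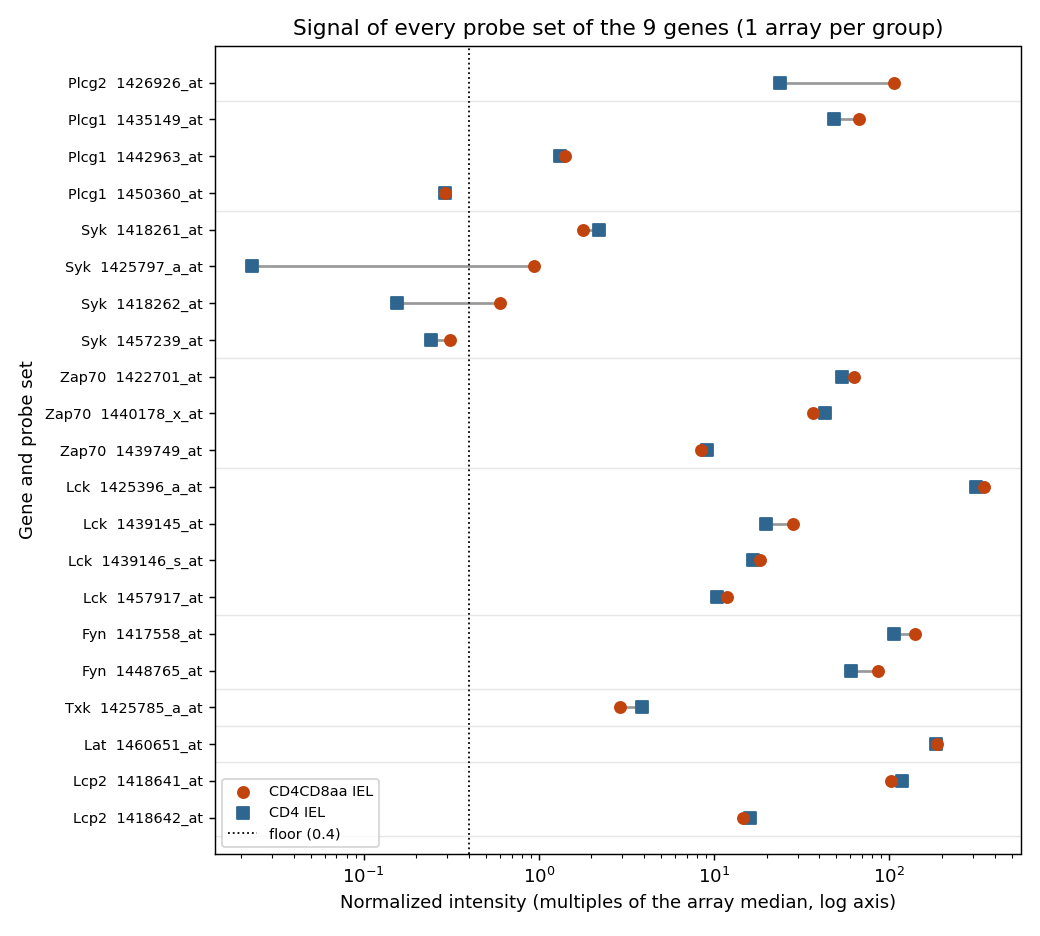
Normalized intensity (multiples of the array median, log axis) of the 21 probe sets of the 9 genes, with CD4CD8aa IEL as circles and CD4 IEL as squares, 1 array each. The line of Plcg2 runs over a 4.47-fold gap well above the floor of 0.4, the wide lines of Syk 1425797_a_at and 1418262_at start below the floor, and the points of Lat and Lck 1425396_a_at lie close together.

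Plcg2, which encodes phospholipase C gamma 2, was the only one of the 9 genes that differed by at least 2-fold at the probe set that stands for the gene. Its single probe set, 1426926_at, had a signal of 106.951 in CD4CD8aa IEL and 23.92 in CD4 IEL, or 8673.7 and 1973.4 in raw units. It was thus 4.47-fold higher in CD4CD8aa IEL, a log2 difference of 2.16, against a same-gene SD of 0.408 at this signal. Across all 17439 detected genes, 6.85% were at least 2-fold higher in CD4CD8aa IEL, and Plcg2 held rank 45 from the highest difference. Most genes above it were dim. Among the 4151 genes brighter than 16 times the array median on either array, 2.19% were at least 2-fold higher, and Plcg2 held rank 5, after Cd8a, the marker of the sort (log2 difference 6.26), the transcript 2900001G08Rik (2.50), Dsp (2.33) and Cd7 (2.19). In RNA from a bulk sort, more transcript per cell and more cells with the transcript cannot be told apart, and this difference rests on 1 probe set.

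Plcg1, which encodes phospholipase C gamma 1, the main isoform of T cells, was also higher in CD4CD8aa IEL, but by less than 2-fold. Its bright probe set 1435149_at had 66.967 in CD4CD8aa IEL and 48.263 in CD4 IEL, a log2 difference of 0.47, just past the same-gene SD of 0.408. A second probe set, 1442963_at, lay near the array median at 1.41 in CD4CD8aa IEL and 1.33 in CD4 IEL, a log2 difference of 0.08. The third, 1450360_at, was below the floor on both arrays. The log2 difference of Plcg2 exceeded that of Plcg1 by 1.69, a 3.22-fold change in the ratio of the isoforms' signals between the arrays, and such a ratio within each array does not depend on a constant scaling of either array.

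The promoters of both isoforms are shown because they set the gene with the large difference beside its close relative. Each run gives the 250 bases before the annotated start, on the plus strand, from RefSeq on GRCm38.p6. Capitals mark the E-box form CAGGTG or its reverse complement CACCTG. Plcg2 is at chr8:117498025-117498274 and Plcg1 at chr2:160731060-160731309.
Plcg2: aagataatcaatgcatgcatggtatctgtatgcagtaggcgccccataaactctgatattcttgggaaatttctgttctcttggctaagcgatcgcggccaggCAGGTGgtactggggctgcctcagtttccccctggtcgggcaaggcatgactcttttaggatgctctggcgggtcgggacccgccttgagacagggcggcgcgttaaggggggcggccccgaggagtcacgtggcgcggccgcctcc
Plcg1: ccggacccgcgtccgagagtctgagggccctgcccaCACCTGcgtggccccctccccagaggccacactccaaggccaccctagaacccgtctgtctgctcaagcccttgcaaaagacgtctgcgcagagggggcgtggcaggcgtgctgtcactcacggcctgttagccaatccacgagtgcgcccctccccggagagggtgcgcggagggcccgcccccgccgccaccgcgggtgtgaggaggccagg

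The Plcg2 promoter had 59.6% G and C and that of Plcg1 71.2%. Each held 1 match to CAGGTG or CACCTG, a form of the E-box that E proteins bind. At least 1 such match occurs in 17.2% of the 32851 RefSeq promoter windows of this length. Other E-box forms, such as the CACGTG in the Plcg2 run, were not counted. Neither held the RUNX core TGTGGT or the ETS sequence GGAAGT on either strand, which occur in 14% and 19.7% of all windows. All 9 genes matched, with 14 windows since several have more than 1 annotated start. CAGGTG or CACCTG was found in 7 of the 14 windows, from 5 genes (Lck, Plcg1, Plcg2, Syk and Zap70). The RUNX core was in 3 windows, from 3 genes (Lck, Txk and Zap70), and the ETS letters in 5 windows of the same 3 genes. The shares given above are likewise per window. These matches describe the letters only.

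Syk, the Syk-family kinase of B cells, myeloid cells and early thymocytes, was dim, and its probe sets disagreed. The probe set with the highest mean signal, 1418261_at, had 1.80 in CD4CD8aa IEL and 2.22 in CD4 IEL, a log2 difference of -0.30, within the same-gene SD of 0.676. Probe set 1425797_a_at had 0.94 in CD4CD8aa IEL and 0.023 in CD4 IEL, or 76 and 1.9 raw units. The CD4 value lies under the floor, so that this probe set was at least 2.34-fold higher in CD4CD8aa IEL. Probe set 1418262_at had 0.60 in CD4CD8aa IEL and 0.16 in CD4 IEL, at least 1.51-fold higher, and 1457239_at was below the floor on both arrays. The authors' deposited table gives 1425797_a_at a log2 value of -5.35, CD4 over CD4CD8aa and so of the opposite sign to the differences here, which compares a signal below the array median with one of 1.9 raw units. The direction of Syk therefore depends on the probe set, and all its signals were under 2.3 times the array median.

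Zap70, the Syk-family kinase that T cells rely on, was bright on both arrays and straddled 0. Probe set 1422701_at had 62.851 in CD4CD8aa IEL and 53.770 in CD4 IEL, a log2 difference of 0.23. Probe set 1440178_x_at, whose suffix marks possible cross-hybridisation, had 36.773 in CD4CD8aa IEL and 43.092 in CD4 IEL, a log2 difference of -0.23. The third, 1439749_at, had 8.40 in CD4CD8aa IEL and 9.11 in CD4 IEL, a log2 difference of -0.12. All lay within the same-gene SD at their signals (0.408 to 0.452). Since the probe sets differ in sign, they give no single direction for Zap70. The log2 difference of Syk minus that of Zap70 was -0.53 from their brightest probe sets and 0.71 from the median over probe sets.

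Lck, the Src-family kinase carried by the coreceptors, was slightly higher in CD4CD8aa IEL at all 4 probe sets. The brightest, 1425396_a_at, had 347.296 in CD4CD8aa IEL and 313.333 in CD4 IEL, a log2 difference of 0.15 against a same-gene SD of 0.354. Probe set 1439145_at had 28.274 in CD4CD8aa IEL and 19.870 in CD4 IEL, a log2 difference of 0.51. The log2 differences at 1439146_s_at and 1457917_at were 0.14 and 0.18. The probe sets share 1 RNA on each array, so their common sign is no replication. Cd8a, whose product Lck also binds, had 291.416 in CD4CD8aa IEL and 3.79 in CD4 IEL.

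Fyn, the second Src-family kinase of T cells, was higher in CD4CD8aa IEL at both probe sets, again by less than 2-fold. Probe set 1417558_at had 141.142 in CD4CD8aa IEL and 107.041 in CD4 IEL, a log2 difference of 0.40. Probe set 1448765_at had 86.650 in CD4CD8aa IEL and 60.377 in CD4 IEL, a log2 difference of 0.52. Both exceed the same-gene SD of 0.354 at this signal. The log2 difference of Fyn exceeded that of Lck by 0.25, which is smaller than that SD.

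Txk, a Tec-family kinase also called Rlk, was dim and lower in CD4CD8aa IEL. Its single probe set, 1425785_a_at, had 2.91 in CD4CD8aa IEL and 3.91 in CD4 IEL, or 235.9 and 322.3 raw units. The log2 difference of -0.43 was the lowest of the 9 genes and lay within the same-gene SD of 0.553.

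The adaptors were close to equal on the arrays. Lat, the membrane scaffold that Zap70 phosphorylates, had 187.192 in CD4CD8aa IEL and 184.865 in CD4 IEL at its single probe set 1460651_at, a log2 difference of 0.02. In raw units the values were 15181.3 in CD4CD8aa IEL and 15251.4 in CD4 IEL, so that even the sign depends on the scaling. Lcp2, the cytosolic adaptor that binds phospholipase C gamma 1 and joins it to Lat, had 102.642 in CD4CD8aa IEL and 118.885 in CD4 IEL at 1418641_at, a log2 difference of -0.21. Its second probe set, 1418642_at, had 14.610 in CD4CD8aa IEL and 16.158 in CD4 IEL, a log2 difference of -0.15. Both were within the same-gene SD (0.354 and 0.452).

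Over the 9 genes, 1 was at least 2-fold higher in CD4CD8aa IEL, 0 were at least 2-fold lower and 8 lay between, where the shares among all detected genes were 6.85% higher and 6.46% lower. Of the 9 genes, 7 were brighter than 16 times the array median, and at that signal 2.19% of all genes passed 2-fold upwards and 2.12% downwards, 4.31% in all. The median log2 difference of the 9 genes was 0.15, and 0.19 over the 8 matched by exact symbol, against 0.06 over all detected genes and 0.07 over the bright ones. Apart from Plcg2, the genes spanned log2 differences from -0.43 to 0.47, inside the range from -0.61 to 0.75 between the 5th and 95th percentiles of the bright genes. Of the 9 genes, 6 were above 0 and 3 below, where 54.8% of all detected genes and 58.3% of the bright ones were above 0. Of their 19 detected probe sets, some of which share a gene, 13 were higher and 6 lower in CD4CD8aa IEL. Of these, 2 (of Plcg2 and Syk) were higher by at least 2-fold, that of Syk from a CD4 signal under the floor. The matching shares over all detected probe sets were not computed.

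**Figure D2:**
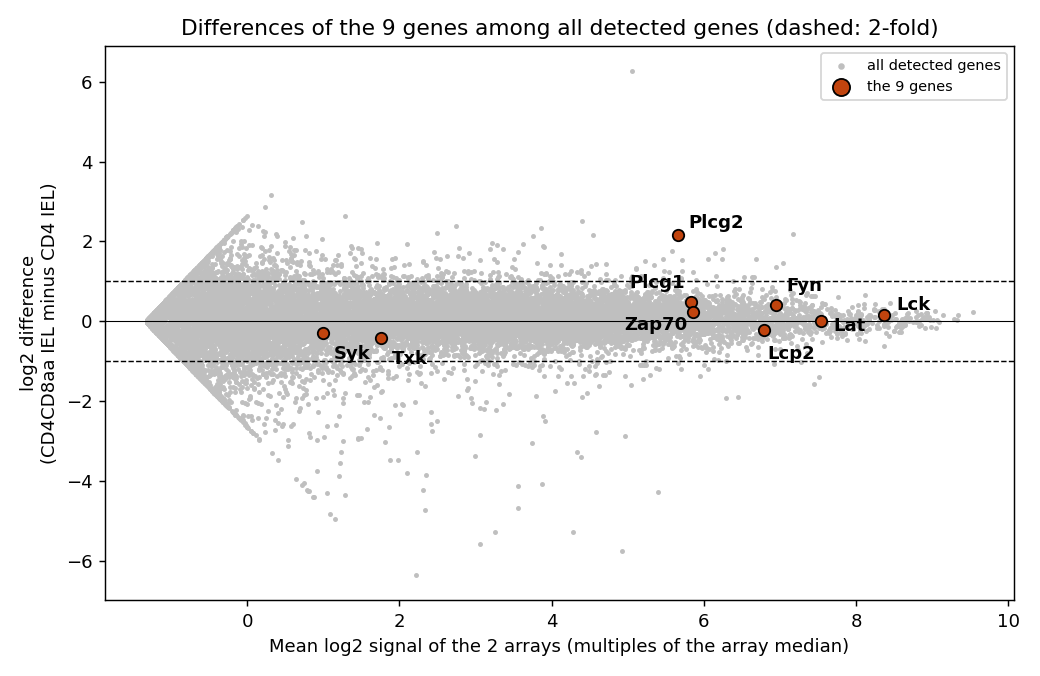
Log2 difference (CD4CD8aa IEL minus CD4 IEL) against the mean log2 signal of the arrays for the 17439 detected genes in grey and the 9 genes in colour, with dashed lines at 2-fold. Plcg2, at 2.16, stands above the upper dashed line among bright genes, and the other 8 genes lie between -0.43 and 0.47.

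The pathway around these genes was described through 6 lists with 86 genes on the array, of which 83 were detected. Of these, 3 were at least 2-fold higher in CD4CD8aa IEL, 8 at least 2-fold lower and 72 between, with a median log2 difference of 0.04. Together 13.3% of the detected list genes were 2-fold apart, and 13.3% of all detected genes were.

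Phospholipases C other than the gamma isoforms were at least 2-fold lower in 4 of 10 detected genes and higher in 0, with a median log2 difference of -0.52, where 6.46% of all detected genes were lower. Only 2 of the 13 genes matched exceeded 4 times the array median on either array, so the share of all detected genes is not one at like signal. The count was 1 with a floor of 2 or 4 times the array median, where fewer of these genes were detected. Plcb4, a beta isoform that G protein-coupled receptors activate, had 17.403 in CD4CD8aa IEL and 41.930 in CD4 IEL, a log2 difference of -1.27, and its 4 other detected probe sets gave log2 differences between -2.42 and -0.84. Plcb4 thus differed in the opposite direction to Plcg2 at every detected probe set. The remaining 3 were dim. Plce1 was at least 5.08-fold lower from a CD4 signal of 2.03, and Plcd1 at least 3.66-fold lower from a CD4 signal of 1.47. Both lay under the floor in CD4CD8aa IEL and so count as detected only through the CD4 array, where they were higher. Plcb1 had 0.80 in CD4CD8aa IEL and 1.71 in CD4 IEL, while its other probe sets gave log2 differences between -0.27 and 0.56.

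Downstream of phospholipase C, 0 of 24 genes were at least 2-fold higher and 1 was lower, with a median of 0.11. The lower gene was Dgka, which encodes diacylglycerol kinase alpha, an enzyme that removes diacylglycerol. It had 28.093 in CD4CD8aa IEL and 64.166 in CD4 IEL, a log2 difference of -1.19. Among the genes that control Src kinases, 0 of 9 were at least 2-fold higher and 1 was lower, with a median of -0.41. That gene, Sit1, a transmembrane adaptor that binds the phosphatase SHP2, had 19.455 in CD4CD8aa IEL and 50.133 in CD4 IEL, a log2 difference of -1.37. Both genes have 1 detected probe set, and both lay well past the same-gene SD of 0.408.

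The partners of Lat and Lcp2 held 1 higher and 1 lower gene of 27, with a median of 0.12. Vav2, a guanine nucleotide exchange factor, had 2.59 in CD4CD8aa IEL and 1.28 in CD4 IEL, a log2 difference of 1.02. Nck2, an adaptor that binds Lcp2, had 0.77 in CD4CD8aa IEL and 1.57 in CD4 IEL, a log2 difference of -1.03. Both were dim and only just past 2-fold. The other Src, Syk and Tec kinases held 1 higher and 1 lower gene of 9 detected, with a median of 0.30: Bmx, at least 2.50-fold higher from a CD4 signal under the floor, and Btk, the Tec kinase of B cells, with 0.37 in CD4CD8aa IEL and 0.83 in CD4 IEL and so at least 2.08-fold lower. Of the CD3 and zeta chains, 1 of 4 was at least 2-fold higher, with a median of 0.12. Cd3e had 118.291 in CD4CD8aa IEL and 58.966 in CD4 IEL, 2.01-fold higher, and its log2 difference is 0.98, under 2-fold, when the raw signals are used.

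**Figure D3:**
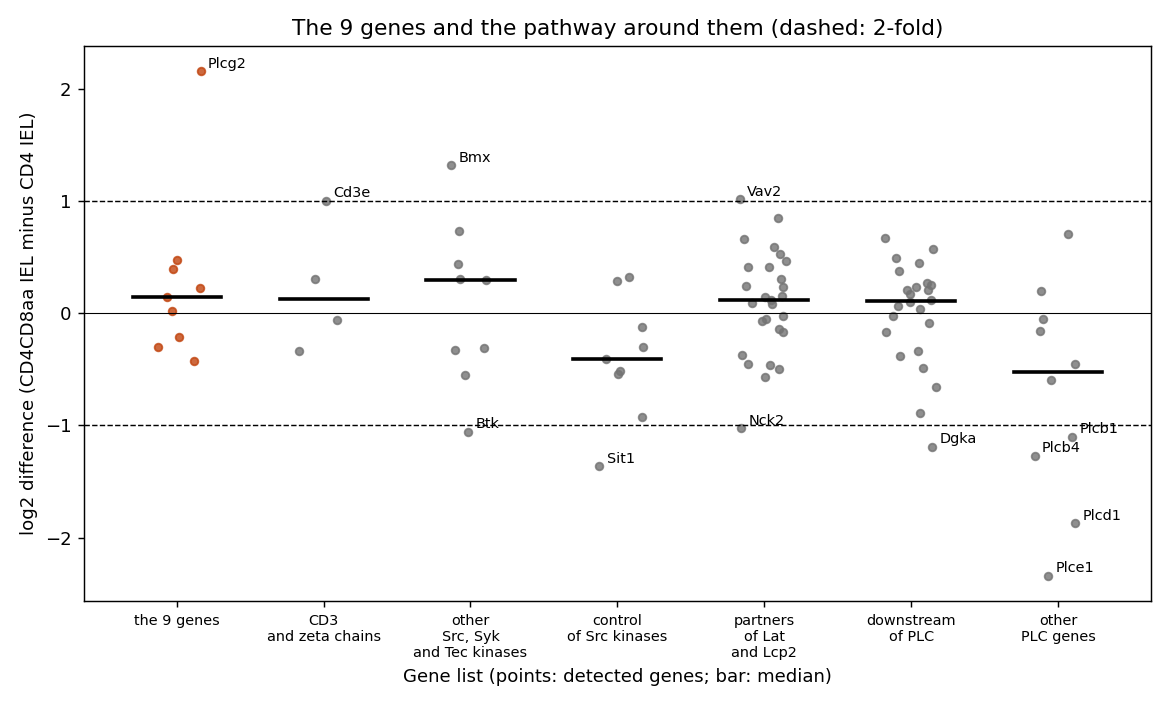
Log2 difference (CD4CD8aa IEL minus CD4 IEL) of the detected genes in the set of 9 and in the 6 pathway lists, with a bar at each median and dashed lines at 2-fold. Genes past 2-fold are named, and the medians run from -0.52 for the other phospholipase C genes to 0.30 for the other Src, Syk and Tec kinases.

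Btk and the adaptor Blnk, which are among the partners with which Plcg2 works in B cells, were below the array median on both arrays. Other genes of the lists were not: Lat2 had 1.35 in CD4CD8aa IEL and 0.75 in CD4 IEL, a log2 difference of 0.85. Its 2 other detected probe sets gave 0.05 and 1.81. Blk had 1.86 in CD4CD8aa IEL and 2.72 in CD4 IEL, a log2 difference of -0.55. What these levels mean for Plcg2 was not tested. Blnk, which like Grap2 was chosen after seeing its values, had 0.66 in CD4CD8aa IEL and 0.56 in CD4 IEL. Grap2, the adaptor that links Lcp2 to Lat, had 20.084 in CD4CD8aa IEL and 12.661 in CD4 IEL, a log2 difference of 0.67, which is under 2-fold.

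Cells other than T cells carry Syk and Plcg2, so their markers were measured beside these genes. T cell markers were bright on both arrays, and the lowest of the 7 matched stood at 41.589 in CD4CD8aa IEL and 52.615 in CD4 IEL. B cell markers summed to 9.41 in CD4CD8aa IEL and 8.56 in CD4 IEL over 9 genes, none above 4 times the array median. Myeloid markers summed to 46.494 in CD4CD8aa IEL and 46.156 in CD4 IEL over 14 genes, with 2 at least 2-fold higher, 1 lower and 10 between. The brightest of them, Lyz1, had 11.302 in CD4CD8aa IEL and 15.146 in CD4 IEL, a log2 difference of -0.42. Its 2 other detected probe sets gave -0.47 and 1.13. The near-equal myeloid sums rest on including Lyz1, so they do not show that the myeloid markers were equal. Mast cell markers summed to 15.142 in CD4CD8aa IEL and 22.415 in CD4 IEL over 10 genes, with 2 higher and 1 lower by 2-fold. Each of these mast cell calls is a bound from a signal under the floor on 1 array, with the other array under its median. Kit carried most of the mast cell sum, with 10.493 in CD4CD8aa IEL and 18.541 in CD4 IEL. NK cell markers summed to 3.11 in CD4CD8aa IEL and 5.34 in CD4 IEL over 6 genes, with 0 higher and 2 lower. Epithelial markers summed to 56.962 in CD4CD8aa IEL and 69.792 in CD4 IEL over 16 genes, with 1 higher and 4 lower. Among B cell markers, 0 were higher and 1 was lower by 2-fold. These 2-fold counts cover detected markers only: 8 B cell, 13 myeloid, 8 mast cell, 5 NK cell and 15 epithelial. For comparison, 6.85% of the whole detected set passed 2-fold upwards and 6.46% downwards. A few genes carry each sum, and single markers differed more: myeloid Itgax had 5.33 in CD4CD8aa IEL and 1.76 in CD4 IEL, a log2 difference of 1.60, and Cd14 had 0.64 in CD4CD8aa IEL and 1.90 in CD4 IEL, a log2 difference of -1.57. These markers were chosen after seeing their values. The part of other cells in the difference of Plcg2 was not tested.

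**Figure D4:**
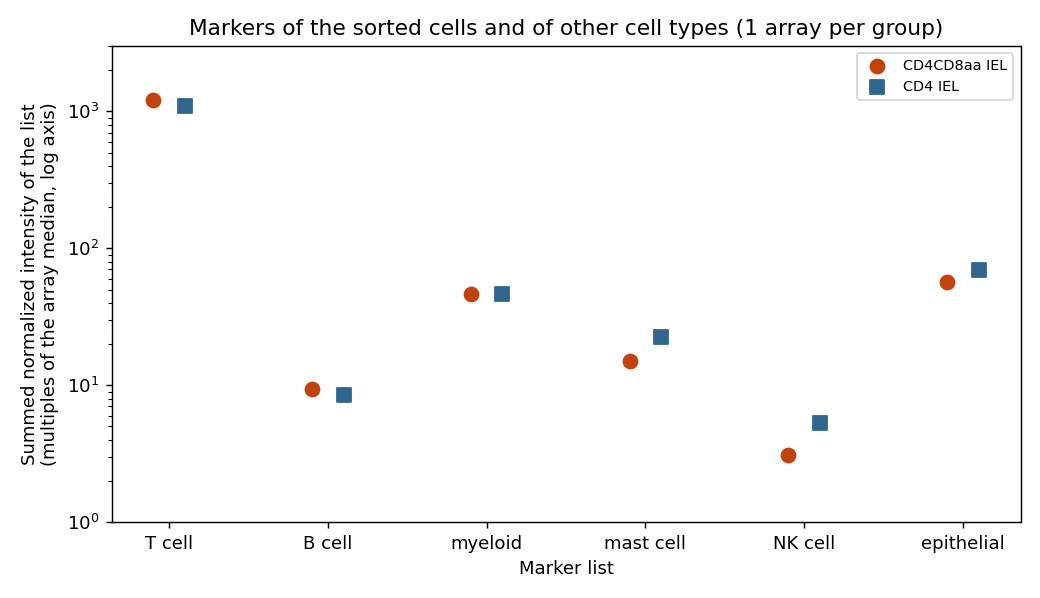
Summed normalized intensity (multiples of the array median, log axis) of the markers of T cells and of 5 other cell types, with CD4CD8aa IEL as circles left of CD4 IEL as squares, 1 array each. The T cell sums are 1210.9 in CD4CD8aa IEL and 1093.7 in CD4 IEL, far above those of the other cell types. The lists hold different genes and probe sets in unlike numbers, so the sums do not measure the share of each cell type.

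Under the processing alternatives, the log2 difference of Plcg2 ranged from 2.10 to 2.16 and that of Plcg1 from 0.28 to 0.47. Plcg2 has 1 probe set, above every floor used on both arrays, so changes of floor or probe set could not move its value. Only changes of scaling did. No other gene of the set reached 2-fold under any alternative, and the values of Syk, Zap70 and Lat fell on both sides of 0.

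**Figure D5:**
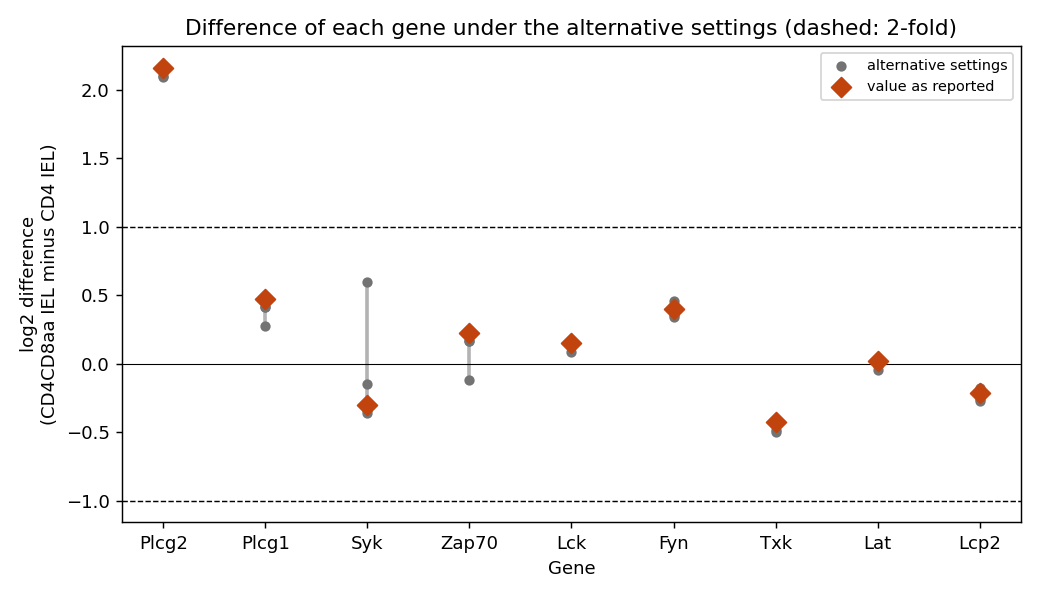
Log2 difference (CD4CD8aa IEL minus CD4 IEL) of each of the 9 genes as reported (diamonds) and under the alternative settings (grey points), with dashed lines at 2-fold. Plcg2 stays between 2.10 and 2.16, and Syk spans the widest range, from -0.36 to 0.60.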

How the data were processed

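RNA of 2 sorted populations was hybridised to Affymetrix arrays, and the submitters' processing notes name GCOS 1.2. The sources used here do not give the background correction or probe summarisation. The authors deposited raw and normalized intensities of 45101 probe sets, so named per the file headers. The 2% trimmed mean of the raw values was 500 on both arrays. The values called raw here were thus already scaled to a common level, and are not unscaled intensities. A check of the values showed the normalized ones to equal raw intensity over the array median, within 0.00499 in the rounded table. That quotient was used unrounded. The authors' deposited log2 values and linear fold are CD4 over CD4CD8aa, per the file headers, and the log2 differences computed here have the opposite sign. The 2 columns of present or absent calls name no sample and were not used.

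The floor was the higher of the arrays' 30th percentiles. Probe sets with 1 gene symbol (37782) were used, and 64 controls, 1399 with several symbols, 5821 with none and 35 with dates were left out. A gene took its probe set with the highest mean floored log2 signal. The gene names were checked against RefSeq synonyms. Called means at least 2-fold. From the pathway lists, up to 12 detected genes past 2-fold are named, without those contradicted by another probe set, and all 9 genes with all probe sets. The members, lists, motifs and rules were chosen with earlier results of these data known. The number of arrays limits the precision. The functions were tested on simulated data, in genes above 4 times the array median and with noise smaller than the same-gene SD. That check does not cover dimmer genes. Python 3.11.15, numpy 2.4.6, pandas 2.3.3 and statsmodels 0.14.6 (lowess, span 0.3) were used. Alternatives changed the floor, scaling, choice of probe set and source table.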

Additional observations from a re-analysis of the deposited data

How the results depend on the processing

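The count of the 9 genes at least 2-fold higher (1) and lower (0) in CD4CD8aa IEL was the same under 11 other settings of the processing and without Syk, a setting chosen after seeing the data. A floor of 4 times the median left Syk and Txk undetected, with 7 genes. The median over the 9 genes ranged from 0.09 to 0.23. Syk took a log2 difference of 0.60 and Zap70 one of -0.12 as the median over probe sets, and Lat was below 0 (lowest -0.04) with raw signals, median centring or lowess. Over all genes, the counts at least 2-fold higher and lower were 1998 and 1960 with no floor, 459 and 489 with a doubled floor, 204 and 219 with a floor of 2 times the median, and 141 and 140 with one of 4 times, against 1195 and 1126 as reported. Of the pathway genes, 1 in place of 3 was higher with a floor of 2 or 4 times the median, with raw signals, median centring or lowess, and 5, 3 and 3 in place of 8 were lower with a doubled floor and with floors of 2 and 4 times the median. Plcb4, Dgka and Sit1 stayed at least 2-fold lower under these 11 settings. Dgka and Sit1 have 1 detected probe set, above every floor used, so only changes of scaling could move their values. For Plcb4 the changes of floor could not move the value either. Plce1 had -0.02 with a floor of 2 times the median, Bmx 0.32, Btk -0.06 and Plcd1 -0.87 with a doubled floor, and Plcb1 -0.14 as the median over probe sets. The median of all detected genes dropped by 0.06 with median centring, which sets it to 0, and with lowess, which centres the differences near 0. It moved less under the others. A higher floor narrows the differences of signals under it, so lower counts follow from that setting. No cause was tested for the remaining shifts. No paired analysis was possible because each group has 1 array.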
